A study of Mus musculus with 18 samples.

Results

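The comparison described here is that of mouse livers given Pien Tze Huang on top of carbon tetrachloride with livers given carbon tetrachloride and water. It covers 12 of the 18 libraries of the series, 6 Cirrhosis-PTH and 6 Cirrhosis, chosen by their labels alone, and all 474 circular RNAs (circRNAs) of the deposited table. All mice were male C57BL/6, 6 weeks old when bought. Cirrhosis mice were injected into the peritoneum with 10% carbon tetrachloride (CCl4), a hepatotoxin, at 10 µl per g of body weight 2 times a week for 12 weeks, and were given water by mouth. Cirrhosis-PTH mice had the same injections and a daily oral dose of 0.25 mg per g of Pien Tze Huang (PTH), a traditional Chinese patent medicine, from a solution of 50 mg per ml. Both groups therefore carried the CCl4 injury, and no group received PTH without CCl4. The 6 Control mice, whose values are printed beside the others where they help to place a level, were injected with corn oil and given water. The labels speak of 15 treated mice per group, of which 6 were sequenced. The question, as far as the labels state it, is which circRNAs differ when PTH is added.

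A circRNA forms when the spliceosome joins the end of an exon back to the start of the same exon or an upstream one, so that the product has no free ends and resists exonucleases. RNA sequencing recognises it by reads across this back-splice junction, which linear RNA of the host gene lacks. Many circRNAs are made from exons near the start of protein-coding genes, accumulate in cells that divide rarely, and need not follow the level of their host's linear RNA. In liver, CCl4 kills hepatocytes around the central veins, and repeated injury brings macrophage infiltration, activation of stellate cells and deposition of matrix.

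The back-splice junctions of the circRNAs that the results turn on are shown first, because a junction is the only sequence that sets a circRNA apart from its host's linear transcript. Of those with the smallest p in the comparison, 10 are printed, all with both ends at annotated exon ends. None holds the untranslated region of a coding transcript, and the circles of Pvt1 and 9030622O22Rik come from non-coding transcripts. The junction of Wac, which has the smallest p of all and meets the same conditions, is not shown here. Also printed is the second circRNA of a host that shares one end with the first. The 20 lower-case bases end the last exon of the circle, the 20 capitals begin its first exon, and the back-splice joins them. All are on the sense strand of the host, 5′ to 3′, from GENCODE M21 transcripts on GRCm38.
Pvt1, exon 2: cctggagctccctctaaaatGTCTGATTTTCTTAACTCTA
Adgre1, exons 6 to 7: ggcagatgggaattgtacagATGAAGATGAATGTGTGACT
Ascc3, exons 31 to 36: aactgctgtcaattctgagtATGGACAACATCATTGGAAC
Snx5, exons 6 to 9: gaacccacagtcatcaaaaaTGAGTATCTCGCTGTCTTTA
Snx5, exons 8 to 9: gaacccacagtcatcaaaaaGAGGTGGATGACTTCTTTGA
Acer3, exons 2 to 7: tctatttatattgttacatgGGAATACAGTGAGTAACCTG
Mettl9, exons 3 to 4: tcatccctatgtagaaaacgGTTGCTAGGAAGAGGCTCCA
Mettl9, exons 2 to 4: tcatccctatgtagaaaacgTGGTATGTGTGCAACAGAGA
Mitf, exons 6 to 7: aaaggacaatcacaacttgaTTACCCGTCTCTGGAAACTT
9030622O22Rik, exons 2 to 5: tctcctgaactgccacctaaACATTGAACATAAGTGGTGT
Gab1, exon 2: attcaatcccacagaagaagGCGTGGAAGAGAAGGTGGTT
Ehmt1, exons 16 to 18: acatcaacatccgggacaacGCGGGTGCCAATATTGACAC
The 2 Snx5 circles share their lower-case bases and differ in the capitals, and the same holds for the 2 Mettl9 circles, so in each pair one donor was joined to different acceptors.

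In the 12 libraries 29942 back-splice reads were recovered from the deposited library-scaled counts (CPM), 1595 to 2384 per Cirrhosis library and 1293 to 8431 per Cirrhosis-PTH library. Of the 5688 values, 31.1% were 0 and the median was 2 reads, so most levels below rest on few reads. Cirrhosis 4 to 6 stood apart from Cirrhosis 1 to 3: their summed CPM was 385 to 435 against 207 to 293, and the total behind their CPM was 4137928 to 5475347 against 7464024 to 9431580. In the Cirrhosis-PTH group the summed CPM was 305 to 330 in libraries 1 and 2, with totals of 4235961 to 5707814, and 99.5 to 289 in libraries 3 to 6, with totals of 7788679 to 29164326. Summed CPM was 327 ± 96.6 in Cirrhosis and 247 ± 87.9 in Cirrhosis-PTH (SD, n = 6 each), a difference within the spread of the libraries (exact 2-sided permutation p = 0.156, adjusted over 4 measures 0.623). The number of circRNAs detected was 325 ± 59.6 and 328 ± 55.2 (adjusted exact permutation p = 0.924). No sequencing batch or date is given, so within-batch values could not be computed. Since these are bulk livers, fewer cells of a type and less RNA per cell cannot be told apart in any value below.

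**Figure D1:**
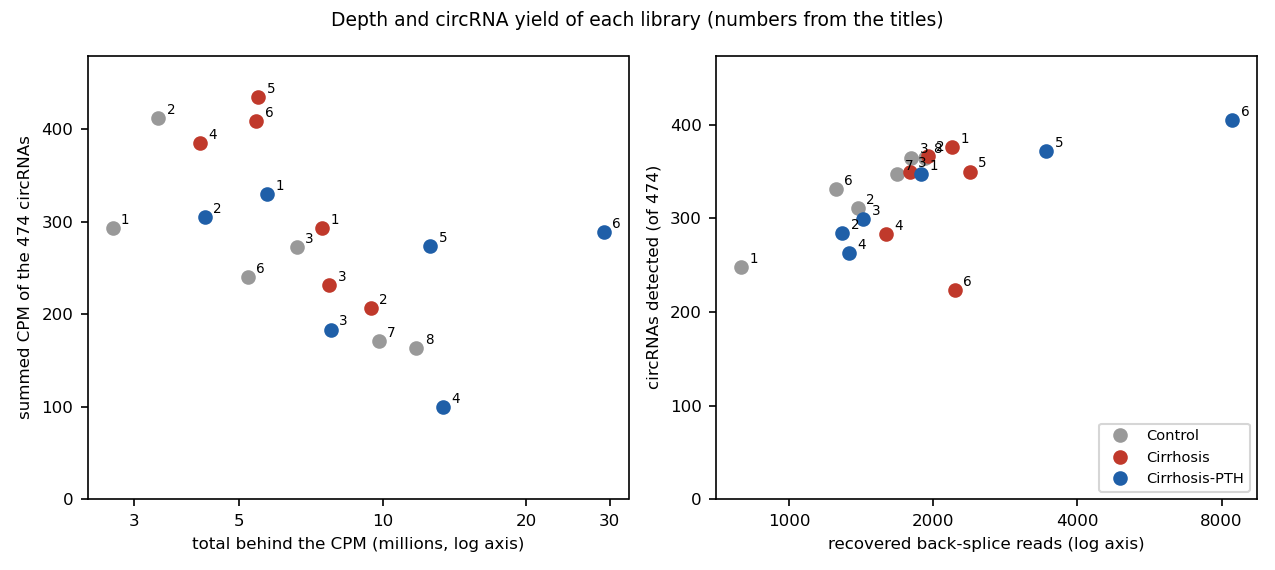
Summed CPM of the 474 circRNAs against the total behind the CPM (left, log axis) and circRNAs detected against recovered back-splice reads (right, log axis), 1 point per library with its number. Cirrhosis 4 to 6 (385 to 435 CPM) lie above Cirrhosis 1 to 3 (207 to 293 CPM), and Cirrhosis-PTH 4 is lowest at 99.5 CPM.

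Few circRNAs set the livers given PTH apart from the Cirrhosis livers at this depth. One from Wac, the gene of an adaptor with a WW domain that is linked to histone ubiquitination and autophagy, had reads in all 6 Cirrhosis livers and none in the 6 Cirrhosis-PTH livers. It was the only circRNA past the adjusted threshold in edgeR and DESeq2 on recovered reads, and with limma on CPM of all libraries none passed. Most of the circRNAs next in order were also lower with PTH, among them those of the lncRNA Pvt1, of the macrophage receptor gene Adgre1 (F4/80), of the helicase gene Ascc3 and of the sorting nexin gene Snx5. Those that were higher included circRNAs of the lncRNA 9030622O22Rik and of the histone methyltransferase gene Ehmt1.

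With limma on log2(CPM + 0.143), 0 of 474 circRNAs (0%) passed an adjusted p of 0.05, and the smallest adjusted p was 0.0510. At an unadjusted p under 0.05 there were 34 (7.17%), 26 lower with PTH (5.49%) and 8 higher (1.69%). On recovered reads, edgeR and DESeq2 each called 1 circRNA (0.211% each), Wac. Both groups of 6 were free of overlap in 2 circRNAs, both lower with PTH (0.422%), and in 0 that were higher (0%). The split of directions depended on the scaling of the libraries. The median fitted log2 difference over all 474 was -0.17 with CPM as deposited. It was -0.02 when each library was scaled to its summed circRNA CPM. When libraries were centred on the median of the 26 circRNAs found in all 18 libraries, it was 0.34. The counts at an unadjusted p under 0.05 were 26 lower and 8 higher, 18 lower and 21 higher, and 8 lower and 52 higher in that order. Scaling to the summed CPM and centring each remove a shift common to all circRNAs, so their medians cannot decide whether one exists. The summed CPM itself differed within the spread of the libraries (exact 2-sided permutation p = 0.156). A shift of all circRNAs together in either direction was not established, and each difference below is to be read against these medians.

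**Figure D2:**
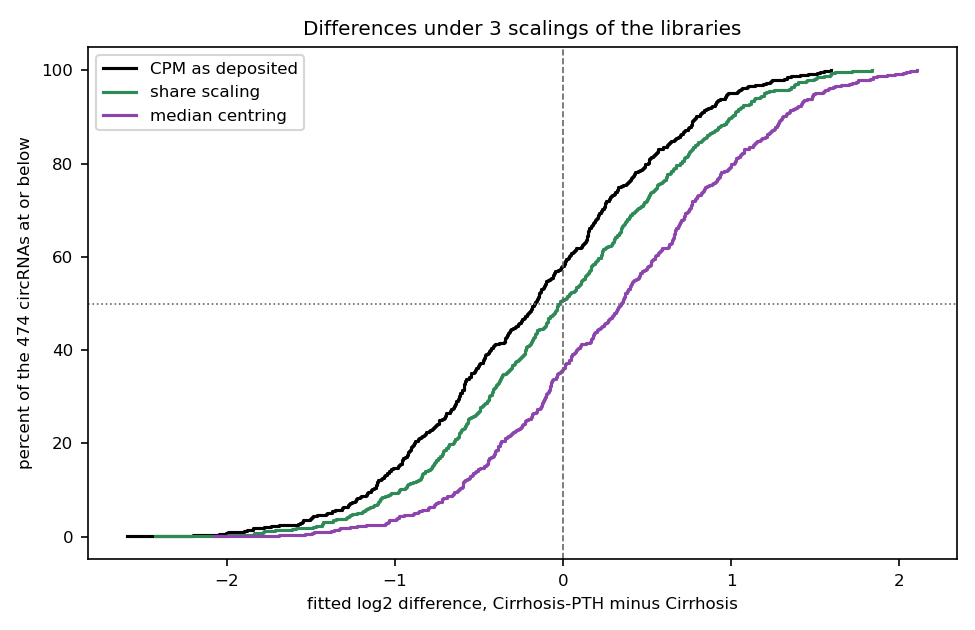
Cumulative percent of the 474 circRNAs (y axis) at or below each fitted log2 difference, Cirrhosis-PTH minus Cirrhosis (x axis), for CPM as deposited, share scaling (each library divided by its summed circRNA CPM) and median centring. The curves cross 50% at -0.17, -0.02 and 0.34, so the sign of the median turns with the scaling.

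As whole profiles, the 2 groups were on average farther from each other than libraries within a group, with the pairs of both groups pooled. The mean distance on the log2 scale was 36.6 between groups and 35.6 within them, a difference of 0.946 (exact 1-sided permutation p = 0.00216, the smallest that 924 splits can give). Cirrhosis livers were more unlike one another, at 37.9, than Cirrhosis-PTH livers, at 33.4, and than the 2 groups were from each other, at 36.6. The call was lost when only circRNAs with a mean of 1 CPM or more were used (p = 0.184) and when only detection was compared (p = 0.0519, exact permutation). It was also lost without any single Cirrhosis-PTH library when all within-group pairs were pooled (exact permutation p of 0.147, 0.303, 0.128, 0.225, 0.132 and 0.119 without libraries 1 to 6). With the within-group distances averaged per group, leaving out any 1 library gave exact permutation p values of 0.00216 to 0.0433.

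**Figure D3:**
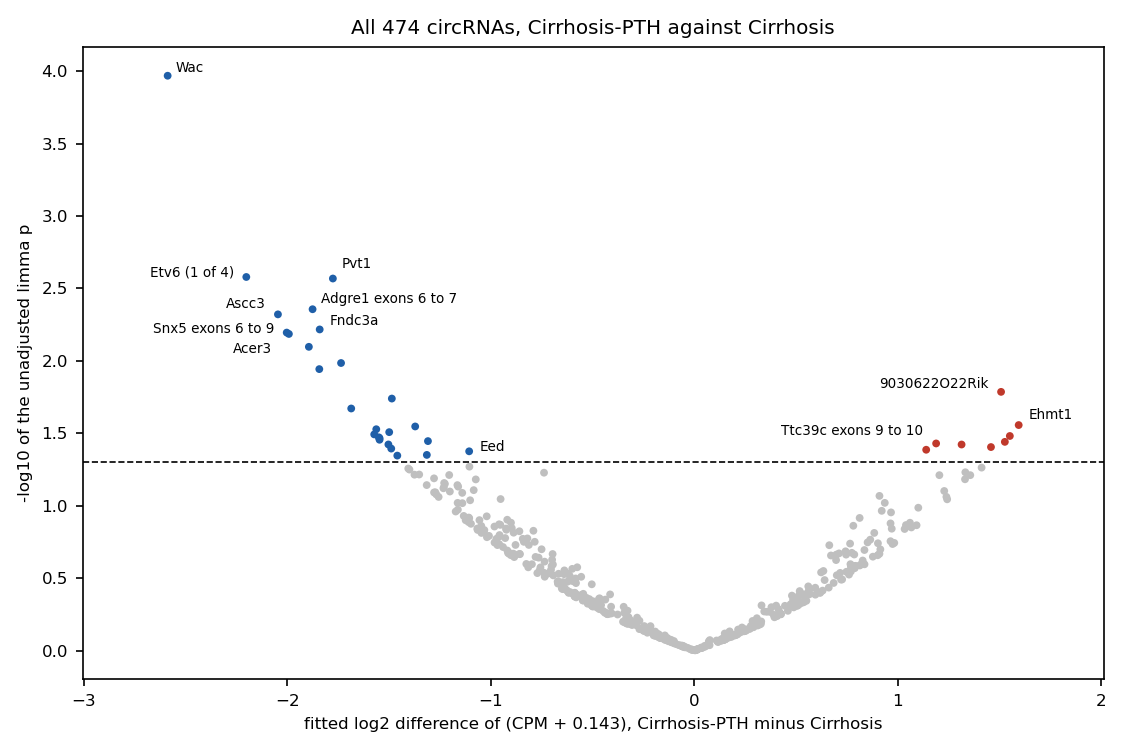
Fitted log2 difference of CPM, Cirrhosis-PTH minus Cirrhosis (x axis), against -log10 of the unadjusted limma p (y axis) for all 474 circRNAs. Blue points (26) are lower and red points (8) higher at an unadjusted p under 0.05 (dashed line), 0 passed the adjusted threshold, and under median centring the same counts are 8 lower and 52 higher.

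The circRNA of Wac consists of coding exons 4 to 6, 336 bases long (GRCm38 chromosome 18, 7901496 to 7906044). Its lowest, median and highest levels were 0.134, 0.616 and 2.77 CPM in Cirrhosis, from 36 reads, and 0 in each Cirrhosis-PTH liver. All 6 Cirrhosis livers therefore lay above all 6 Cirrhosis-PTH livers, although only just in Cirrhosis 1 to 3, whose mean was 0.237 CPM against 2.03 CPM in Cirrhosis 4 to 6. Against a floor of 3 reads over the Cirrhosis-PTH group the level was at least 22.1-fold higher in Cirrhosis, at least 13.2-fold without the deepest library, Cirrhosis-PTH 6, and at least 14.9-fold without Cirrhosis 6, which held 15 of the 36 reads. The fitted log2 difference was -2.59 ± 0.67 (SE). Its adjusted p was 0.0510 by limma, 0.0355 by edgeR and 0.0125 by DESeq2. Limma's adjusted p passed 0.05 when Cirrhosis 1, 2 or 3 was left out (0.0184, 0.0363 and 0.0280) and reached 0.188 without Cirrhosis-PTH 6. Without Cirrhosis 4 to 6 the log2 difference was -1.38 with an unadjusted limma p of 0.0134, and the smallest adjusted p of any circRNA was 0.924. In Control 3 of 6 livers had reads, 6 in all, with a median of 0.0759 CPM.

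The hosts next after Wac by p, Etv6 and Pvt1, act in transcription or lie beside such a gene. Mitf and Tasp1 are described with them but came further down by p, after hosts of other functions. Pvt1 is a long non-coding RNA next to Myc, and its second exon circularises alone (318 bases, chromosome 15, 62107148 to 62107465). This circle was at 1.04, 5.91 and 9.43 CPM in Cirrhosis and at 0.373, 1.31 and 2.36 CPM in Cirrhosis-PTH. The 3 highest livers were Cirrhosis 4 to 6, with a mean of 9.32 CPM, while Cirrhosis 1 to 3, with a mean of 1.87 CPM, overlapped the Cirrhosis-PTH group. Its log2 difference was -1.78 ± 0.59 (limma adjusted p = 0.386), and without Cirrhosis 4 to 6 it was -0.62 (unadjusted p = 0.396). Control livers lay at 0.408, 1.19 and 1.67 CPM, in the range of the Cirrhosis-PTH group.

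Etv6 encodes an ETS-family repressor of transcription, and 4 of its circRNAs were measured. The one from 134115220 to 134137417 on chromosome 6, with 1 end at an annotated exon end, was at 0.424, 0.729 and 2.92 CPM in Cirrhosis and 0, 0 and 0.715 CPM in Cirrhosis-PTH. Reads were found in 6 Cirrhosis and 2 Cirrhosis-PTH livers, and the groups overlapped through Cirrhosis-PTH 5 alone. The log2 difference was -2.20 ± 0.73 (limma adjusted p = 0.386). The other Etv6 circles stood at -0.02, 1.20 and 0.02, the value of 1.20 belonging to exon 2, with 6 reads in Cirrhosis and 51 in Cirrhosis-PTH (limma adjusted p = 0.633). These reads are not scaled for depth, and 16 and 29 of the 51 came from Cirrhosis-PTH 5 and 6. Its mean was 0.132 CPM in Cirrhosis and 0.551 CPM in Cirrhosis-PTH.

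Mitf, a basic helix-loop-helix transcription factor of pigment cells, osteoclasts and other lineages, gave a circle of exons 6 to 7 (193 bases). It was at 0.212, 0.597 and 2.03 CPM in Cirrhosis and 0, 0 and 0.309 CPM in Cirrhosis-PTH, where only 2 livers had reads. The groups overlapped at the low end of Cirrhosis, and the log2 difference was -1.84 ± 0.73 (limma adjusted p = 0.491). Tasp1, the protease that cleaves MLL-family histone methyltransferases, gave a circle at -1.57 ± 0.73 (limma adjusted p = 0.624).

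Among hosts of immune cells, Adgre1 encodes the F4/80 receptor by which mouse macrophages are recognised. Its circle of exons 6 to 7 (297 bases, chromosome 17, 57406834 to 57408495) was at 0, 0.751 and 1.28 CPM in Cirrhosis, from 29 reads, and at 0, 0.0172 and 0.175 CPM in Cirrhosis-PTH, from 4 reads. Cirrhosis 6 was at 0 and the other 5 Cirrhosis livers lay above every Cirrhosis-PTH liver. The log2 difference was -1.88 ± 0.66 (limma adjusted p = 0.386), and without Cirrhosis 4 to 6 it was -2.09 (unadjusted p = 0.00287). The Adgre1 circle of exons 11 to 12 was at 0.184, 1.01 and 3.84 CPM in Cirrhosis and 0, 0.648 and 0.944 CPM in Cirrhosis-PTH, a log2 difference of -1.26 ± 0.73 with overlapping groups. Dock8, a guanine nucleotide exchange factor of leukocyte migration, gave a circle in 5 Cirrhosis and 2 Cirrhosis-PTH livers, at medians of 0.819 and 0 CPM (-1.50 ± 0.70, limma adjusted p = 0.624). One Cirrhosis-PTH liver reached 1.19 CPM, above the Cirrhosis median.

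**Figure D4:**
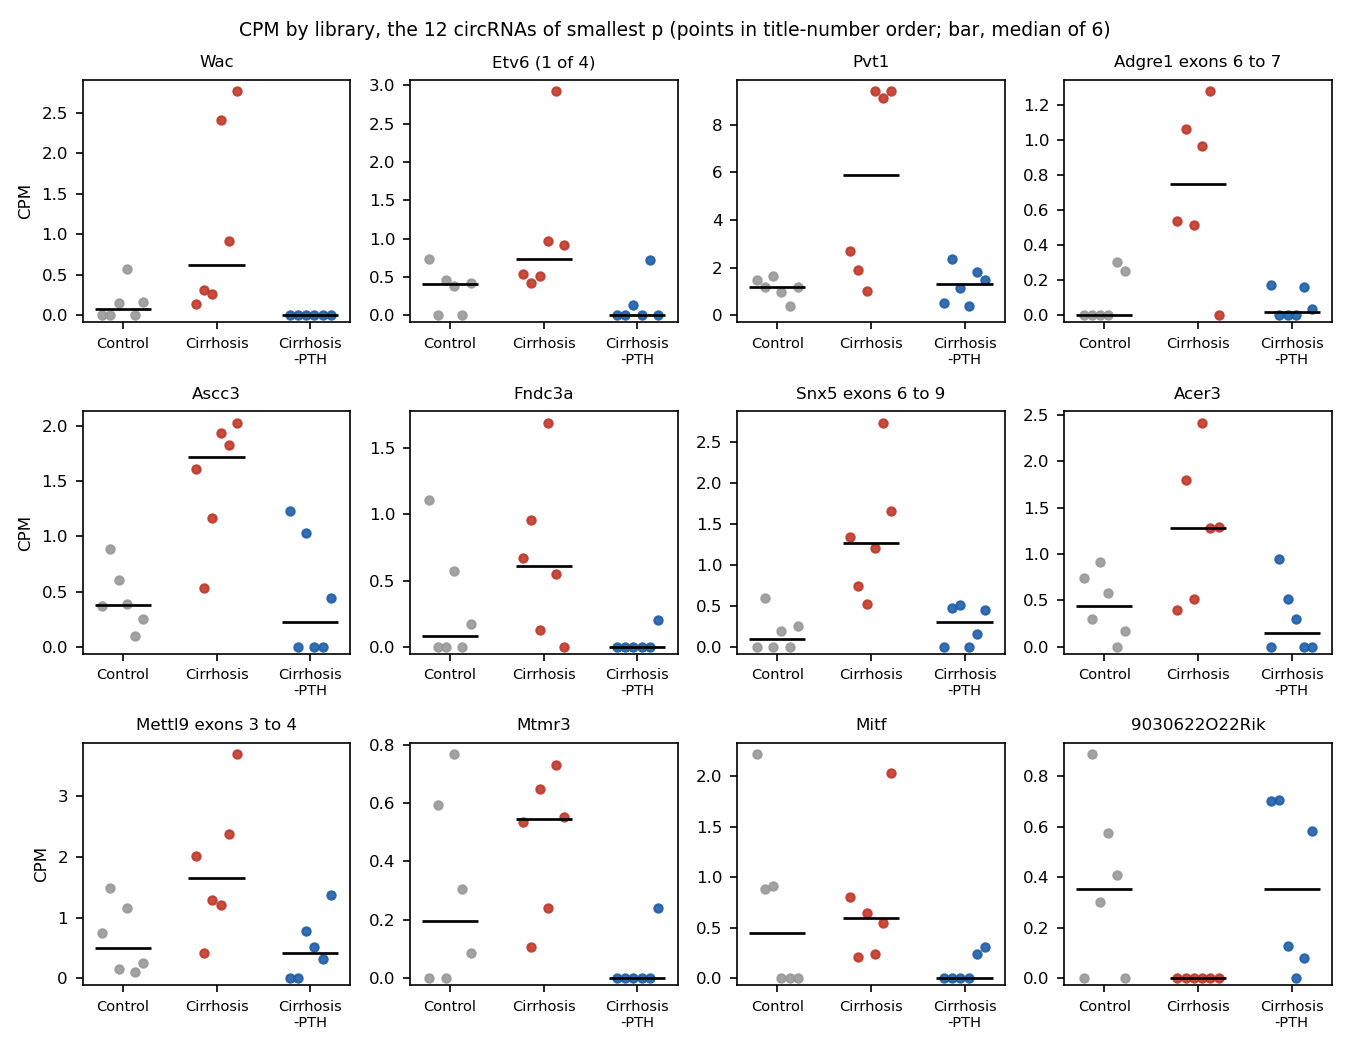
CPM in each library (points) of the 12 circRNAs with the smallest p, for 6 Control, 6 Cirrhosis and 6 Cirrhosis-PTH livers; bars are group medians, and each panel has its own linear y axis. Wac is at 0 in all Cirrhosis-PTH livers, 9030622O22Rik is at 0 in all Cirrhosis livers, and Pvt1 is near 9 CPM in Cirrhosis 4 to 6 alone.

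Ascc3 encodes the helicase of a complex that serves DNA alkylation repair and the rescue of collided ribosomes, and its circle spans coding exons 31 to 36 (765 bases). It was at 0.530, 1.72 and 2.03 CPM in Cirrhosis and 0, 0.223 and 1.23 CPM in Cirrhosis-PTH, where 3 livers had no read. Of the 6 Cirrhosis livers, 4 lay above every Cirrhosis-PTH liver, and the log2 difference was -2.05 ± 0.73 (limma adjusted p = 0.386).

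Snx5 encodes a sorting nexin that retrieves cargo from endosomes. Its circle of exons 6 to 9 (402 bases, chromosome 2, 144255340 to 144257993) was at 0.518, 1.27 and 2.74 CPM in Cirrhosis and 0, 0.302 and 0.514 CPM in Cirrhosis-PTH. This was the second circRNA without overlap, by a margin from 0.514 to 0.518 CPM, 4 reads in each of the 2 libraries concerned. The log2 difference was -2.004 ± 0.734 (limma adjusted p = 0.386), beside 0.25 ± 0.69 for the circle of exons 8 to 9 that shares its donor, which had 9 reads in Cirrhosis and 25 in Cirrhosis-PTH. Of those 25 reads, not scaled for depth, 16 came from Cirrhosis-PTH 6, the deepest library. Whether the 2 circles differ in their response was not tested.

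Acer3, an alkaline ceramidase, gave a circle of exons 2 to 7 at 0.402, 1.28 and 2.42 CPM in Cirrhosis and 0, 0.149 and 0.944 CPM in Cirrhosis-PTH. The groups overlapped through 2 Cirrhosis livers, and the log2 difference was -1.99 ± 0.73 (limma adjusted p = 0.386). Mettl9, a histidine methyltransferase, was lower in both its circles: exons 3 to 4 stood at medians of 1.65 and 0.420 CPM (-1.89 ± 0.71) and exons 2 to 4 at 2.50 and 0.939 CPM (-1.23 ± 0.68), with overlap in both. Fndc3a, a fibronectin type III domain protein of the endoplasmic reticulum and Golgi, gave a circle at 0, 0.609 and 1.69 CPM in Cirrhosis and 0, 0 and 0.206 CPM in Cirrhosis-PTH, the latter from 6 reads in library 6 alone (-1.84 ± 0.67).

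The myotubularins Mtmr3 and Mtm1 remove the 3-phosphate of phosphoinositides, Pitpnb transfers phosphatidylinositol between membranes, Pnpla8 is a calcium-independent phospholipase and Gab1 is the docking protein of receptor tyrosine kinases such as Met. Reads of Mtmr3 were found in 6 Cirrhosis livers, with a median of 0.545 CPM, and in 1 Cirrhosis-PTH liver, and those of Mtm1 in 5 and 1. The Gab1 circle, made of exon 2 alone, was at 0.483, 1.15 and 1.48 CPM in Cirrhosis and 0, 0.222 and 0.526 CPM in Cirrhosis-PTH, so that the groups met only at their edges. Its mean was 1.11 CPM in Cirrhosis 1 to 3 and 1.02 CPM in Cirrhosis 4 to 6, and its log2 difference was -1.69 ± 0.73 (limma adjusted p = 0.624). Mtmr3, Mtm1, Pitpnb and Pnpla8 had log2 differences of -1.74, -1.49, -1.56 and -1.55. The remaining lower circRNAs of the 24 with the smallest p came from the septin gene Sept10 (-1.37), the membrane scaffold gene Mpp6 (-1.55), the sperm-tail gene Spata6 (-1.31) and Cfhr3 (-1.55).

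Higher with PTH were 3 of those 24. The lncRNA 9030622O22Rik gave a circle of exons 2 to 5 (477 bases, chromosome 2, 147962032 to 147973014) with no read in any Cirrhosis liver and with 0, 0.356 and 0.708 CPM in Cirrhosis-PTH, from 26 reads. Of the Cirrhosis-PTH livers 5 had reads and 1 had none, so the groups met at 0. Against a floor of 3 reads over the Cirrhosis group it was at least 4.72-fold higher with PTH, and at least 3.59-fold without the deepest Cirrhosis library, Cirrhosis 2. Of the 26 reads 17 came from Cirrhosis-PTH 6, and without that library the bound was at least 2.72-fold (limma adjusted p = 0.624, edgeR 0.288, DESeq2 0.504). Control livers lay at 0, 0.356 and 0.888 CPM, with the highest of them above every Cirrhosis-PTH liver.

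Ehmt1 (GLP) methylates histone H3 to silence genes, and its circle of exons 16 to 18 was at 0, 0.0530 and 0.548 CPM in Cirrhosis and 0.298, 0.887 and 0.944 CPM in Cirrhosis-PTH. All 6 Cirrhosis-PTH livers had reads, against 3 Cirrhosis livers, and the log2 difference was 1.59 ± 0.72 (limma adjusted p = 0.624). Mlxipl encodes ChREBP, the transcription factor that switches on lipogenic genes in response to carbohydrate. Its circle of exons 3 to 7 was at medians of 0 and 0.718 CPM, with reads in 2 Cirrhosis and 5 Cirrhosis-PTH livers (1.55 ± 0.73, limma adjusted p = 0.624), and its circle of exons 6 to 7 stood at 0.37 ± 0.61.

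Cfhr3, annotated as an unprocessed pseudogene, belongs to the complement factor H-related genes, whose near-identical copies can share reads. Each of its circles also had only 1 end at an annotated exon end, so both are uncertain. The longer (chromosome 1, 139593754 to 139628309) was at medians of 0.700 CPM in Cirrhosis and 0 CPM in Cirrhosis-PTH, and the shorter (139593754 to 139597732), which shares one end, had no read in Cirrhosis and 30 in Cirrhosis-PTH. The shorter circle was thus at least 5.44-fold higher with PTH, or at least 4.15-fold without the deepest Cirrhosis library. Cirrhosis-PTH 6 held 21 of its 30 reads, and without that library it was at least 2.72-fold higher. The longer circle stood at -1.55 ± 0.73. Of the 49 hosts with more than 1 circRNA, 15 had all of theirs lower by fitted sign, 8 all higher and 26 both.

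All 24 circRNAs with the smallest p kept the sign of their difference in every alternative in which they were tested. They were, however, chosen for small p in these same libraries. Median centring moved every difference up by the same amount, which took the median of all 474 from -0.17 to 0.34. The lower differences of the 24 were all at -1.31 or below, so centring could turn none of the signs. Of the 24, 11 had an unadjusted p under 0.05 after median centring, 20 after share scaling, 21 with depth as a covariate and 10 without Cirrhosis 4 to 6. At the edge of the set, just inside, lay Spata6 at -1.31 ± 0.62 and, just outside, a circle of Foxp1 (99435216 to 99456580) at 1.53 ± 0.73. In length the 24 resembled the table, with a median of 333 bases against 306 and 3 exons in both, and they came from 24 hosts on 16 chromosomes.

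Of the 10 circRNAs with the highest mean CPM, 0 passed the adjusted threshold in limma, edgeR or DESeq2. An unadjusted limma p under 0.05 was found for 3 (Pvt1, Eed and Ttc39c), beside 34 of all 474 (7.17%). The circle of the ubiquitin ligase gene Ube3a was at 4.35, 6.56 and 10.9 CPM in Cirrhosis and 2.68, 8.89 and 12.98 CPM in Cirrhosis-PTH, overlapping throughout (log2 difference 0.08 ± 0.39). The circles of the sterol transporter gene Gramd1c (0.07 ± 0.41) and of the glycosylation enzyme gene Alg12 (0.01 ± 0.50) were also close to 0. Rmdn2, a microtubule-associated protein, gave medians of 8.54 and 5.10 CPM (-0.74 ± 0.39, limma adjusted p = 0.633), and Erbin, a scaffold of the ErbB2 receptor, 3.81 and 2.77 CPM (-0.35 ± 0.51). Eed, a core subunit of the Polycomb repressive complex, stood out among them with 2.86, 4.21 and 8.70 CPM in Cirrhosis and 1.03, 2.27 and 3.54 CPM in Cirrhosis-PTH. Its ranges overlapped, and its log2 difference of -1.11 ± 0.54 (limma adjusted p = 0.624) became -0.59 both after median centring and without Cirrhosis 4 to 6. The circle of exons 9 to 10 of Ttc39c was in turn higher with PTH, at 0.184, 1.90 and 3.87 CPM against 1.04, 3.79 and 6.04 CPM (1.19 ± 0.57, limma adjusted p = 0.624), and without Cirrhosis 4 to 6 it was at 1.32.

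Circles of hosts that serve liver function lay in both directions in each list, and 0 members of any list passed the adjusted threshold in limma, edgeR or DESeq2. Counts of higher and lower below are by fitted sign, beside 199 higher and 275 lower over all 474. Of 13 circRNAs of lipid metabolism hosts 5 were higher and 8 lower (median -0.08), with the acetyl-CoA carboxylase gene Acaca at 0.43 and the elongase gene Elovl5 lowest at -1.27. Those of amino acid and urea cycle hosts were 5 higher and 3 lower (median 0.32), and those of xenobiotic metabolism, bile acid and transport hosts 7 higher and 5 lower (median 0.24), with Abcb11, which pumps bile salts into the canaliculus, at 0.84 and the drug transporter gene Abcc2 (exons 5 to 6) at -1.03. Glucose and energy metabolism hosts gave 3 higher and 5 lower (median -0.19), and plasma protein hosts 2 higher and 5 lower (median -0.59, -0.07 after centring), with complement C5 (Hc) lowest at -1.21 and 3 reads in Cirrhosis-PTH against 17 in Cirrhosis. At an unadjusted p under 0.05 there was 0 in each of these 5 lists, beside 34 of all 474 (7.17%).

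Among hosts of extracellular matrix, fibrosis and cytoskeleton 7 of 8 circRNAs were lower and 1 higher by fitted sign (median -0.74), a split that became 5 lower after median centring (median -0.22) and 6 lower after share scaling (median -0.44). The focal adhesion kinase gene Ptk2, which relays integrin signals, was at medians of 0.519 and 0.0343 CPM (-1.50 ± 0.72, limma adjusted p = 0.624). Ptk2 and Fndc3a were the 2 members below 0.05 unadjusted, beside 34 of all 474 (7.17%). The 2 circles of Arhgap10, which encodes a GTPase-activating protein, stood at -1.05 and -0.84, the kinase gene Rock1 at -0.64 and Asph, an aspartate hydroxylase, at 0.01. Of 18 circRNAs whose hosts act in growth factor, TGF-beta, Wnt or Hippo signalling 14 were lower (median -0.39, and 0.13 after centring, with 7 lower). The Ras GTPase activator Rasa2 was at 1.81, 2.44 and 4.24 CPM in Cirrhosis and 0.514, 1.15 and 1.93 CPM in Cirrhosis-PTH for exons 2 to 4, nearly without overlap (-1.16 ± 0.65, limma adjusted p = 0.633), while Smad4, the shared mediator of TGF-beta signals, was at 0.91 and Egfr at -0.11.

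Inflammation hosts were split evenly, 4 higher and 4 lower: all 3 circles of the forkhead repressor Foxp1 were positive (1.53, 0.79 and 0.78), whereas Dock8, Nfkb1 (-1.40) and the kinase gene Tbk1 (-1.27) were negative. Chromatin hosts gave 6 higher and 11 lower (median -0.15), with Ehmt1 at one end and Phf21a, a reader of unmethylated histone H3, at the other (-1.41). Ubiquitin system hosts gave 10 higher and 6 lower (median 0.24), Itch highest at 1.23 and Trim33 lowest at -1.08. Cell cycle and repair hosts gave 3 higher and 9 lower (median -0.45), 2 of them below 0.05 unadjusted, Ascc3 and Tasp1. RNA processing hosts gave 11 and 11 (median 0.03). Among hosts whose circles are widely studied, 17 of 43 were higher and 26 lower (median -0.19), with Hipk3, the host of a much studied circle, at -1.17 and Zfp292 at 0.51. Below 0.05 unadjusted, the inflammation and chromatin lists each had 1 higher and 1 lower, and the widely studied hosts 1 higher and 4 lower. RNA processing hosts had 1 lower, again Ascc3, and ubiquitin system and growth factor hosts 0. Over all 474 there were 34 (7.17%).

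**Figure D5:**
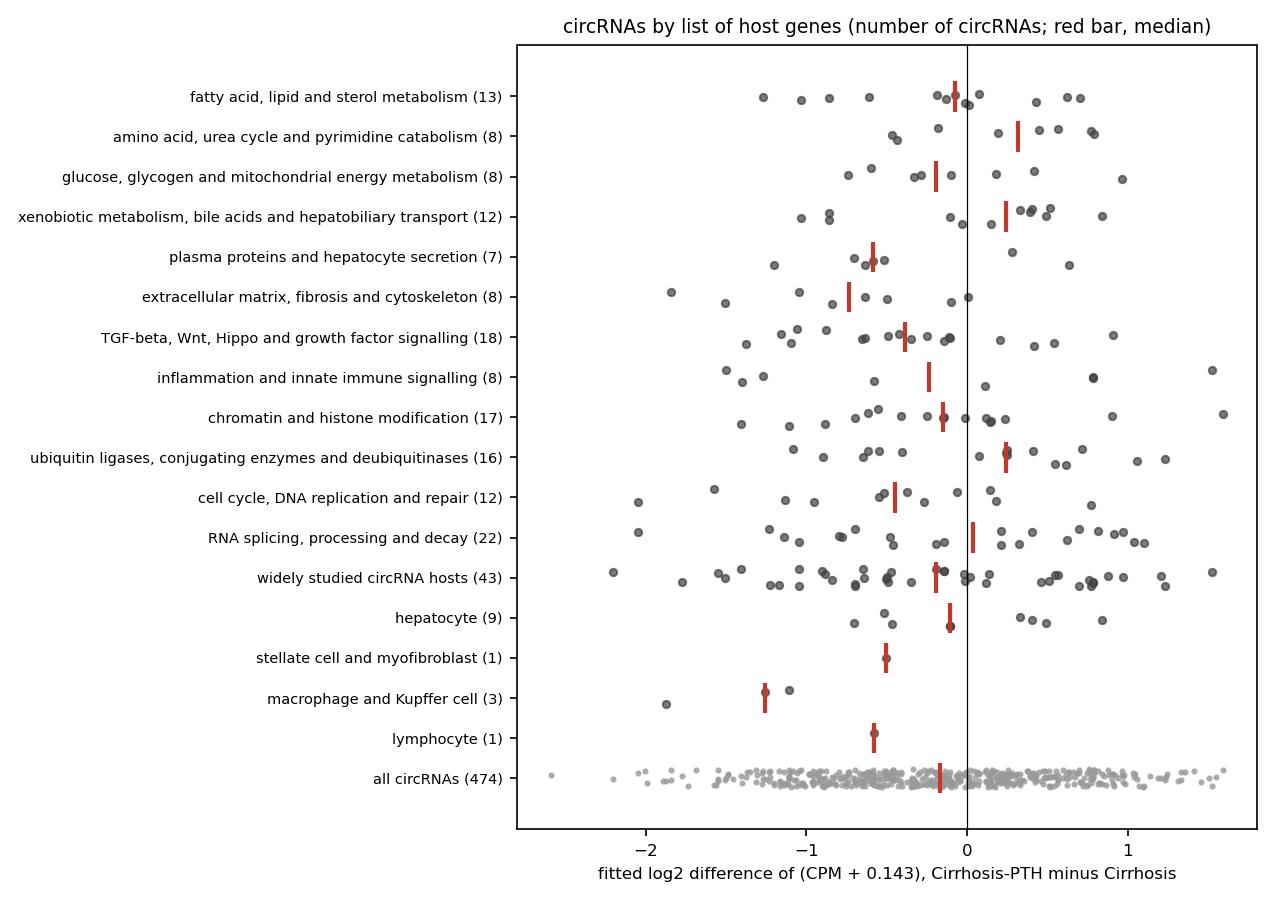
Fitted log2 difference, Cirrhosis-PTH minus Cirrhosis (x axis), of each circRNA (points) in the lists of host genes that had 1 or more measured (y axis, with the number of circRNAs), and the median of each list (red bar). The macrophage list lies at -1.26 and the matrix list at -0.74 beside -0.17 over all 474; after median centring these 3 medians are -0.74, -0.22 and 0.34.

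Markers of the cell types that liver RNA holds were mostly not represented by a circRNA. Of 25 hepatocyte marker genes 7 were hosts, with 9 circRNAs, 4 higher and 5 lower (median -0.11), and summed levels of 2.95, 4.59 and 9.67 CPM in Cirrhosis and 1.93, 6.01 and 8.06 CPM in Cirrhosis-PTH. Of 36 macrophage and Kupffer cell genes 2 were hosts, Adgre1 and the efferocytosis receptor gene Mertk, and all 3 of their circRNAs were lower by fitted sign (median -1.26, and lower in all 3 after centring and share scaling too). Their summed level was 0, 0.558 and 1.02 CPM in Control, 0.184, 2.56 and 6.76 CPM in Cirrhosis and 0.149, 0.910 and 1.19 CPM in Cirrhosis-PTH, from 25, 115 and 47 reads. The Cirrhosis livers thus spread over and above the range of the other groups. The share of macrophage content in the differences of other circRNAs was not tested. The stellate cell list had 1 circRNA, of Tmem56 (-0.50 ± 0.54), and the lymphocyte list 1, of Ikzf1 (-0.58 ± 0.73). Lists for endothelial cells, neutrophils and monocytes, cholangiocytes and erythroid cells had 0 measured circRNAs.

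By structure, the 18 circles of a single exon had a median of -0.53 and 77.8% were lower, beside 58.0% over all 474. Circles of 2 exons stood at -0.11, of 3 at -0.15 and of 4 or more at -0.22. Ordered by mean CPM, the top 119 circRNAs had a median of -0.44, with 67.2% lower, and the bottom 119 one of -0.01, with 50.4% lower. The pseudocount shrinks differences of low circRNAs, and its part in this contrast was not tested. Circles that lie wholly in coding sequence had a median of -0.15 (361 circles) and those that also hold 5′ untranslated sequence -0.35 (56 circles). These medians are given as a description, without a test.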

How the data were processed

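RNA was measured in livers of 18 mice, 6 per group, after ribosomal RNA removal, and each library is 1 mouse per the labels. The authors deposited one CPM value per circRNA and library, and CIRI is named per the file headers; its version and the total that the CPM refers to are not given in the sources used here. Tools in the submitters' processing notes, with no role given, are cutadapt 4.2, Trim Galore, Bowtie2, HISAT2 2.2.1, Bowtie 1.3.1 and StringTie 2.1.5, and the build is GRCm38. No circRNA of the table had reads in fewer than 9 of 18 libraries, or fewer than 4 of the 12 compared.

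Within a library each CPM was a multiple of what 1 read is worth, so reads were recovered: 100% of 5886 values above 0 were whole within 0.01 of a read. A single read was worth 0.0343 to 0.242 CPM in the 12 libraries, and 3 reads 0.103 to 0.725 CPM; reads carry no molecular identifiers, so such floors cover counting error only. To look for a library deposited 2 times, the 30 pairs of libraries within a group were compared over circRNAs with 10 or more reads in the pair; none agreed within counting noise (a chi-square of 3.01 to 6.88 for each degree of freedom).

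Differences were tested with limma 3.58.1 (trend option) in R 4.3.3 on log2(CPM + 0.143), 2-sided, in 1 model of all 18 libraries, and p-values were adjusted by Benjamini-Hochberg across the 474 circRNAs, with a threshold of 0.05. The pseudocount, the median of the 18 libraries' smallest non-zero CPM, understates differences of low circRNAs. edgeR 4.0.16 and DESeq2 1.42.0 were run on recovered reads as alternatives. The test script was checked on simulated data. Distances and library measures used exact permutation tests (Python 3.11.15, numpy 2.4.6, pandas 2.3.3, SciPy 1.17.1; matplotlib 3.10.9 for figures). Ends were matched to GENCODE M21 exons: 435 of 474 had both ends at exon ends of 1 transcript. Positions are 1-based and strand is that of the annotated host, since the table gives none. Reads of overlapping genes cannot be told apart.

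The members, the 21 host-gene lists and the tests were chosen with earlier results of these data known. Named were circRNAs past an adjusted p of 0.05 in any tool, the 24 of smallest p, those without overlap between groups or at 0 in a whole group, the 10 of highest mean CPM, up to 3 per list by mean CPM, and other circRNAs of hosts among the 24. Some circRNAs that this rule names are left out of the text. The list members Elovl5, Phf21a, Itch, Trim33, Hipk3, Zfp292, Smad4, Nfkb1, Foxp1 and Ptk2 fall outside that rule and were chosen after their values were seen. Alternatives changed the pseudocount, filter, scaling, tool, samples and block.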

Additional observations from a re-analysis of the deposited data

Results flagged for a closer look

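In each group of 6, a library was singled out when its gap to the nearest other library on the log2 scale exceeded Dixon's 95% critical share of the group's range. Of 154 groups checked, 16 had such a library. Chance gives about 1 in 20 for normally distributed values, a rate that does not hold for groups with tied zeros. For Fndc3a, Mtmr3, Mtm1 and Hc in Cirrhosis-PTH the other livers were all at 0, where any single liver with reads is singled out. Cirrhosis-PTH 6 had 8431 recovered reads, where the next library had 3444. It was also the only Cirrhosis-PTH liver with Fndc3a (0.206 CPM) or Mtmr3 (0.240 CPM), and it was highest for the longer Cfhr3 circle (0.617 CPM, next 0.0794 CPM). Cirrhosis-PTH 2 alone of its group had Mtm1 (0.472 CPM) and Hc (0.708 CPM), and it alone had no Asph read (0 CPM, next 0.899 CPM). Cirrhosis-PTH 5 was high for the Etv6 circle from 134115220 to 134137417 (0.715 CPM, next 0.128 CPM). Cirrhosis-PTH 4, the library of lowest summed CPM, was low for Rmdn2 (1.04 CPM, next 4.53 CPM), Alg12 (0.820 CPM, next 3.07 CPM) and Mlxipl exons 3 to 7 (0 CPM, next 0.526 CPM).

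Cirrhosis 6, with 223 circRNAs the library of fewest detected, was at 0 CPM for Adgre1 exons 6 to 7 (next 0.518 CPM), Mpp6 (next 0.804 CPM) and Asph (next 0.731 CPM), and was high for Esco1 (6.09 CPM, next 1.69 CPM). Cirrhosis 1 was at 0 CPM for Mettl9 exons 2 to 4, where the next liver was at 2.03 CPM.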

How the results depend on the processing

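The count higher at an unadjusted p under 0.05 (8 with limma) was 4 with a pseudocount of 1 CPM, 2 for circRNAs above 0 in 9 of 12 libraries, 1 at a mean of 1 CPM or more, 52 with median centring, 21 with share scaling, 17 with edgeR, 3 with edgeR without TMM, 1 with edgeR's own filter and 16 with DESeq2. The count lower (26) was 15 for circRNAs above 0 in 9 of 12 libraries, 4 at a mean of 1 CPM or more, 8 with median centring, 8 with edgeR, 2 with edgeR's own filter and 14 without Cirrhosis 4, 5 and 6 together. Past the adjusted threshold (0) there was 1 with edgeR, 1 without TMM and 1 with DESeq2. The median difference (-0.17) reversed to 0.34 under centring.

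Leaving out 1 library at a time gave 3 to 14 higher, 15 to 33 lower, 0 to 1 called, a median of -0.26 to -0.08, a difference in circRNAs detected of -16.9 to 16.6, in recovered reads of -144 to 1284, and an exact permutation p of the distance of 0.00433 to 0.303. Compared by medians, circRNAs detected (3.5 more with PTH by means) differed by -27 and recovered reads (949 more) by -413.5. The distance p was 0.184 at a mean of 1 CPM or more and 0.0519 for detection (exact permutation).

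With the replicate block, limma called 0 circRNAs, with a smallest adjusted p of 0.0533, 24 lower and 7 higher. Libraries of the same number did not deviate together (correlations of -0.057 to 0.033, own number best in 1 of 6), so the numbers are not read as pairs. For the 24 circRNAs of smallest p, 0 reversed and 6 values moved past the threshold, all of Wac. Other circRNAs named in the text were not part of this count. Among them, Tmem56 turned from -0.50 to 0.01 after median centring. The cause of these changes was not tested, beyond fewer circRNAs being tested under filters. Leaving out Cirrhosis 4 to 6 together, depth as a covariate, detection alone, per-group distances and bounds without 1 library of the group with reads were chosen after seeing the data. With a median SE of 0.694 on the log2 scale, differences well above 1 could also go unresolved. Unadjusted limma p was 0.154 for Arhgap10 (exons 2 to 3) at -1.05, 0.0836 for Elovl5 at -1.27 and 0.0563 for Nfkb1 at -1.40. For Eed at -1.11 the unadjusted limma p was 0.0421. Wac at -2.59 had an adjusted limma p of 0.0510.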

Other observations

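Wholly coding circles whose length is a multiple of 3, and which therefore keep the reading frame around the circle, had a median log2 difference of 0.09, with 46.2% of 130 lower with PTH. The other 231 coding circles had a median of -0.24, with 61.9% lower. This split was noticed in the data, and no test of it was made.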
